A study of Homo sapiens with 6 samples.

Results

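Osteopontin, the protein of SPP1, and the cell-surface receptors known to bind it are described here in KGN cells with and without SOX3 overexpression. The set holds 9 of the 16626 genes in the expression table, taken by symbol: the ligand gene SPP1, the hyaluronan receptor gene CD44 and the integrin subunit genes ITGAV, ITGA4, ITGA5, ITGA9, ITGB1, ITGB3 and ITGB5. All 9 were listed and 8 passed the filter on low values. ITGA9 was below 1 FPKM in both groups. KGN is a human cell line that was established from a granulosa cell tumour of the ovary. The labels call it human ovarian granulosa cells, and total RNA of 6 libraries was sequenced. The 3 OE-NC libraries have the genotype WT and the 3 OE-SOX3 libraries have the genotype SOX3 overexpression. The sources used here do not give the vector, the promoter driving SOX3, the time after its introduction or whether each line was 1 clone. The labels leave unsaid whether a group's libraries are separate cultures, and p-values then measure a spread between libraries that may be technical.

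Osteopontin is a secreted, acidic phosphoprotein of bone and other matrices that also acts as a cytokine. Its arginine-glycine-aspartate (RGD) motif is bound by integrins such as αVβ1, αVβ3, αVβ5 and α5β1. A neighbouring stretch that thrombin cleavage exposes is bound by α4β1 and α9β1. CD44 binds hyaluronan and also osteopontin. Integrins work as pairs of 1 α and 1 β subunit, and a pair that has bound its ligand signals through focal adhesion kinases, SRC and phosphatidylinositol 3-kinase (PI3K). The title of the series names SOX3, SPP1 and the PI3K/AKT pathway, so the ligand, its receptors and that pathway are the readouts of interest.

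The coding bases of the RGD motif and the DNA just upstream of the SPP1 start are shown first, because the motif is what the αV and α5 receptors bind and because SPP1 is the gene that differed most. In the annotated transcript SPP1-201 the motif starts at codon 145, and the stretch around it lies at chr4:87981718-87981765 (plus strand, GRCh38) within 1 exon. Capitals mark the RGD codons.
SPP1 coding stretch: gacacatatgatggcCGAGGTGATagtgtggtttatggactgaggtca
The promoters below are the 250 bases before the start given by RefSeq (GRCh38.p14), 5′ to 3′ on the strand of the gene. RefSeq and GENCODE 29 place the starts differently, and 64 bases of the SPP1 window, 184 of the ITGA4 window and 0 of the ITGAV window shown lie inside the gene as GENCODE gives it. Motif distances are counted from the RefSeq start. Those of ITGAV and ITGA4 are shown beside that of SPP1 because these were the tested receptor genes with the largest log2 fold changes. SPP1 lies at chr4:87975464-87975713, ITGAV at chr2:186589806-186590055 and ITGA4 at chr2:181457136-181457385, all on the plus strand. Capitals mark ACAAT or its reverse complement ATTGT, the core recognised by SOX factors, and AACCACA or TGTGGTT, recognised by RUNX factors.
SPP1: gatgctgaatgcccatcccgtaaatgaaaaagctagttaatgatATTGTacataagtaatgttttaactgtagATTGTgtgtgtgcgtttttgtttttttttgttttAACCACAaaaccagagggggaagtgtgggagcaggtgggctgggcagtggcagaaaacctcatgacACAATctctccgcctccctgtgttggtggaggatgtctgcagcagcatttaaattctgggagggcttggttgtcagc
ITGAV: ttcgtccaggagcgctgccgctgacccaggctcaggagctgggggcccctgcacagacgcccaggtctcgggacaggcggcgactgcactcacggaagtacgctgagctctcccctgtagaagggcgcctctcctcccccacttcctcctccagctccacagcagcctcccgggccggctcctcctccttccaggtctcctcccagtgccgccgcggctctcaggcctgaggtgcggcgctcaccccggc
ITGA4: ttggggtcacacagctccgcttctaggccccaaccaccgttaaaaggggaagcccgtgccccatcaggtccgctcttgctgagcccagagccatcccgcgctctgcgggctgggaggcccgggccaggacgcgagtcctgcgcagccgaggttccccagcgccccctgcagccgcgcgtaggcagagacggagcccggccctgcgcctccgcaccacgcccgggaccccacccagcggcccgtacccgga
The SPP1 window held the SOX core 3 times, starting 206, 177 and 77 bases before the start, and the RUNX letters once, starting 143 bases before it. No core overlapped another match. The SOX core occurred in 24.6% of 35116 RefSeq promoter windows of the same length, and 1.37% of windows held it 3 or more times. These windows were not matched to that of SPP1 in G or C content, so the shares do not show that SPP1 is exceptional. AACCACA or its complement occurred in 3.65% of windows. The longer form ACAATG, or CATTGT on the other strand, was not in the SPP1 window and occurred in 9.29% of all windows. The AP-1 letters TGACTCA or TGAGTCA, found in 4.20% of all windows, were not in it either. RefSeq gave 11 windows for 7 of the 9 genes, with none for ITGB3 and ITGA9. The windows of CD44, ITGAV, ITGA4, ITGA5, ITGB1 and ITGB5 held none of these letters. The SPP1 window had 44.8% G or C, and the other windows ranged from 40.8%, in a second ITGAV window not shown, to 78.4%. These motifs were chosen after the SPP1 sequence had been seen, and a match of letters is a description of the window and not a bound site.

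Levels are given in FPKM, reads scaled to gene length and library size, so levels of different genes can be compared within a library. The FPKM of all genes summed to 395040 in OE-NC library 1, to 353550 and 354806 in the other OE-NC libraries and to 329813 to 334915 in OE-SOX3, so the scale differs somewhat between libraries. An alternative scaled every library to the same sum. The libraries held 18039929 to 20335307 reads. OE-NC library 1 stood apart from the other libraries of its group, with a Pearson correlation of log2(FPKM + 1) of 0.986 with each of them, against 0.998 between OE-NC libraries 2 and 3. Its difference from these 2 libraries fell with gene length (Spearman's rho -0.508 across 11131 genes). The receptor genes are long, the shortest tested one at 4019 bp, and most of them were lower in that library. Its FPKM was set against the mean FPKM of OE-NC libraries 2 and 3 as a log2 ratio, with nothing added to the values. On that scale it was lower by 0.81 for ITGA5, by 0.72 for ITGB3 and by 0.43 for ITGB5. It was lower by 0.30 for ITGAV, by 0.29 for ITGA4 and by 0.07 for ITGB1. For CD44 and SPP1 it was above that mean, by 0.09 and 0.24. Receptor results are therefore given with and without OE-NC library 1. Across tested genes its deviations from the group mean correlated at 0.486 with those of OE-SOX3 library 1, which stayed in those fits. Among OE-SOX3 libraries, library 1 was the lowest for ITGA5, ITGB3, ITGB5 and ITGA4. It was the highest for ITGAV, ITGB1 and CD44. SOX3 itself had 3, 6 and 1 reads in the OE-NC libraries and 579, 547 and 540 in the OE-SOX3 libraries.

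SPP1 and 5 of the 7 tested receptor genes were higher in OE-SOX3 cells. By the ratio of mean FPKM, SPP1 was 217-fold higher, ITGAV 2.22-fold, ITGA4 2.09-fold, ITGA5 1.78-fold, ITGB3 1.57-fold and ITGB1 1.32-fold. CD44 and ITGB5 did not pass the threshold. Each gene was compared with limma on log2(FPKM + 1), with a Benjamini-Hochberg adjusted p under 0.05 as the threshold, and "rose" and "fell" refer to it. In all, 6 of the 8 tested genes rose and 0 fell. Changes were frequent over the whole table, where 69.1% of 11131 tested genes passed, 32.9% as higher and 36.1% as lower in OE-SOX3. The OE-SOX3 libraries were all above the OE-NC libraries for 7 of the 8 tested genes and below them for 0. Over all tested genes the groups did not overlap for 76%, with 36.5% higher and 39.5% lower. The median log2 fold change was 0.74 over the 8 genes, 0.61 over the 7 receptor genes and -0.03 over all tested genes. Longer genes were somewhat higher as a class, and among the 5456 tested genes of at least 4019 bp the median was 0.11 and 40.2% were called higher.

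**Figure D1:**
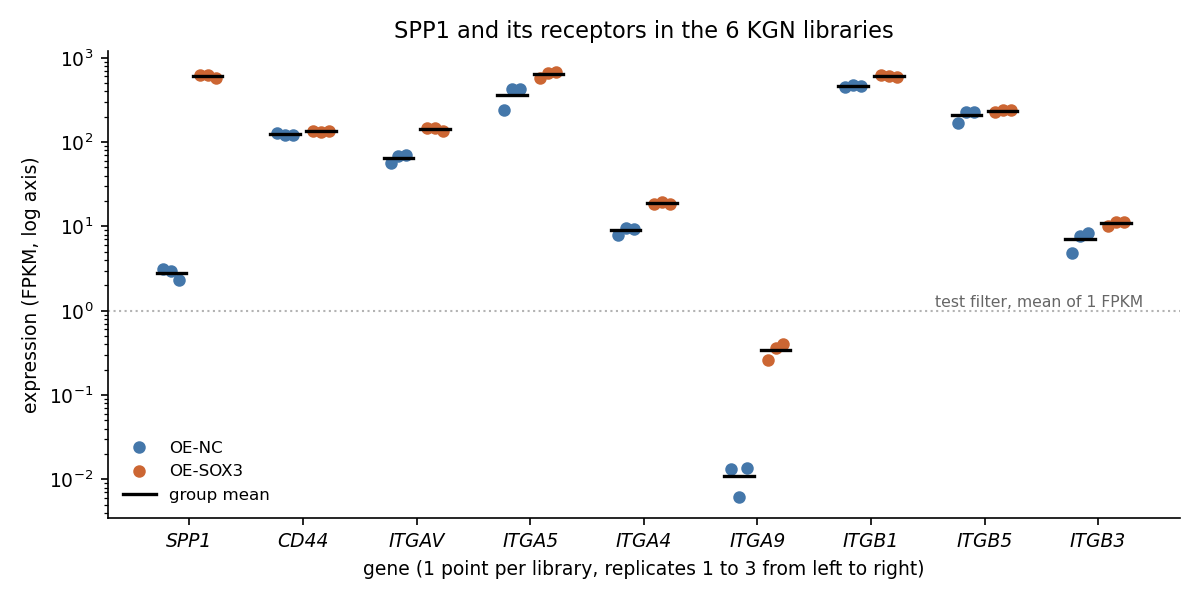
FPKM (log axis) of each of the 9 genes in the 3 OE-NC and 3 OE-SOX3 libraries, 1 point a library, with a bar at the group mean. SPP1 is at 2.33 to 3.09 FPKM in OE-NC and at 582 to 617 FPKM in OE-SOX3, ITGB5 overlaps between the groups, and OE-NC library 1 is the lowest point of ITGA5, ITGB3, ITGB5, ITGAV and ITGA4.

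SPP1 was at 3.09, 2.92 and 2.33 FPKM in OE-NC libraries 1, 2 and 3. In OE-SOX3 libraries 1, 2 and 3 it reached 617, 617 and 582 FPKM. Every OE-SOX3 library was far above every OE-NC library, and the libraries of a group differed little from each other. The means were 2.78 ± 0.399 and 605 ± 20.1 FPKM (SD, n = 3 each), and the log2 fold change was 7.33 (SE 0.09, 95% interval 7.12 to 7.54, limma adjusted p = 4.99e-08). The reads behind these values were 103, 104 and 77 in OE-NC and 20888, 20658 and 18367 in OE-SOX3. Scaled to library depth, the reads differed by a factor of 217 (95% interval 193 to 245, counting error only). The pseudocount of 1 FPKM shrinks the log2 value of a gene this low in OE-NC, and with a pseudocount of 0.1 it was 7.72. No tested gene had a larger log2 fold change. SPP1 also changed its place among all transcripts. In OE-NC 21.0% of tested genes had a lower mean level and 8788 had a higher one, while in OE-SOX3 99.4% were lower and 68 were higher. In bulk RNA, more cells with the transcript and more transcript per cell cannot be told apart.

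SPP1 spans chr4:87975650-87983426 (plus strand, GRCh38), and its exons are shared with no other annotated gene. Of the related mineralised-tissue phosphoproteins, IBSP (bone sialoprotein, which also carries an RGD motif) was the other one with more than a few reads. It had 3, 0 and 0 reads in OE-NC and 37, 24 and 17 in OE-SOX3, which is a ratio of 26.8 after scaling to depth (95% interval 8.83 to 133, counting error only). Its mean stayed below 1 FPKM in both groups (0.0334 and 0.870 FPKM), so it was not tested. DMP1, MEPE and DSPP stayed below 0.1 FPKM in both groups.

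Among the α subunits that pair with β1 or β3 to bind osteopontin, ITGAV and ITGA4 had the largest log2(FPKM + 1) fold changes of the tested receptors. ITGA9, below the filter, had a larger ratio. ITGAV encodes αV, the subunit shared by the vitronectin-type receptors, and it lies on chromosome 2 (186590065 to 186680901, plus strand, GRCh38). It was at 56.2, 68.3 and 69.6 FPKM in OE-NC libraries 1, 2 and 3 and at 149, 147 and 135 FPKM in the OE-SOX3 libraries. The lowest OE-SOX3 library was well above the highest OE-NC library. The means were 64.7 ± 7.41 and 143 ± 7.57 FPKM (SD, n = 3 each), a 2.22-fold difference, with a log2 fold change of 1.14 (SE 0.10, 95% interval 0.91 to 1.37, limma adjusted p = 5.13e-05). Of the tested genes, 3.85% had a larger log2 fold change. Without OE-NC library 1 the value was 1.04.

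ITGA4 encodes α4, which pairs with β1 or β7 and is best known from leukocytes. It lies on chromosome 2 (181457202 to 181536187, plus strand, GRCh38). Its levels were 7.81, 9.67 and 9.40 FPKM in OE-NC and 18.2, 19.5 and 18.5 FPKM in OE-SOX3. The groups did not overlap. The mean went from 8.96 ± 1.01 to 18.7 ± 0.652 FPKM (SD, n = 3 each), with a log2 fold change of 0.99 (SE 0.09, 95% interval 0.79 to 1.20, limma adjusted p = 6.04e-05). The value was 0.90 without OE-NC library 1. ITGB7, the other partner of α4, had at most 2 reads in any library. Of the leukocyte markers, PTPRC, CD163 and CD3E were below 0.1 FPKM in both groups. In the same list CD68 was at 78.1 and 56.0 FPKM, CSF1R at 4.68 and 1.42 FPKM and CD14 at 0.124 and 0.414 FPKM in OE-NC and OE-SOX3.

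ITGA5 encodes α5, which pairs with β1 as the classical fibronectin receptor and also binds osteopontin. It lies on chromosome 12 (54395261 to 54419460, minus strand, GRCh38). Its levels were 239.9, 422 and 422 FPKM in OE-NC libraries 1, 2 and 3 and 582, 665 and 678 FPKM in OE-SOX3. Both groups had their lowest value in library 1, and the spread within OE-NC was wide. The means were 361 ± 105 and 642 ± 52.3 FPKM (SD, n = 3 each), with a log2 fold change of 0.87 (SE 0.22, 95% interval 0.36 to 1.39, limma adjusted p = 0.00954). Without OE-NC library 1 the log2 fold change was 0.60, and ITGA5 still passed.

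ITGA9, whose α9 subunit forms α9β1, was the least abundant of the 9 genes. It had 2, 1 and 2 reads in OE-NC and 40, 54 and 58 in OE-SOX3, or 0.0134, 0.00626 and 0.0135 FPKM against 0.263, 0.359 and 0.409 FPKM. All OE-SOX3 libraries were above all OE-NC libraries, and the reads per unit depth differed by a ratio of 31.3 (95% interval 13.1 to 97.8, counting error only). An exact two-sided permutation test over the libraries gave p = 0.1, the smallest that 3 against 3 allows. In the fit without the filter on low values its log2(FPKM + 1) fold change was 0.41 (limma adjusted p = 0.000257), where 28.5% of 16278 genes were called higher. Its level in OE-SOX3 stayed below that of every other gene of the set. ITGA9 spans chr3:37452115-37823514 (plus strand, GRCh38), and 6.46% of its exon bases are shared with its antisense gene.

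**Figure D2:**
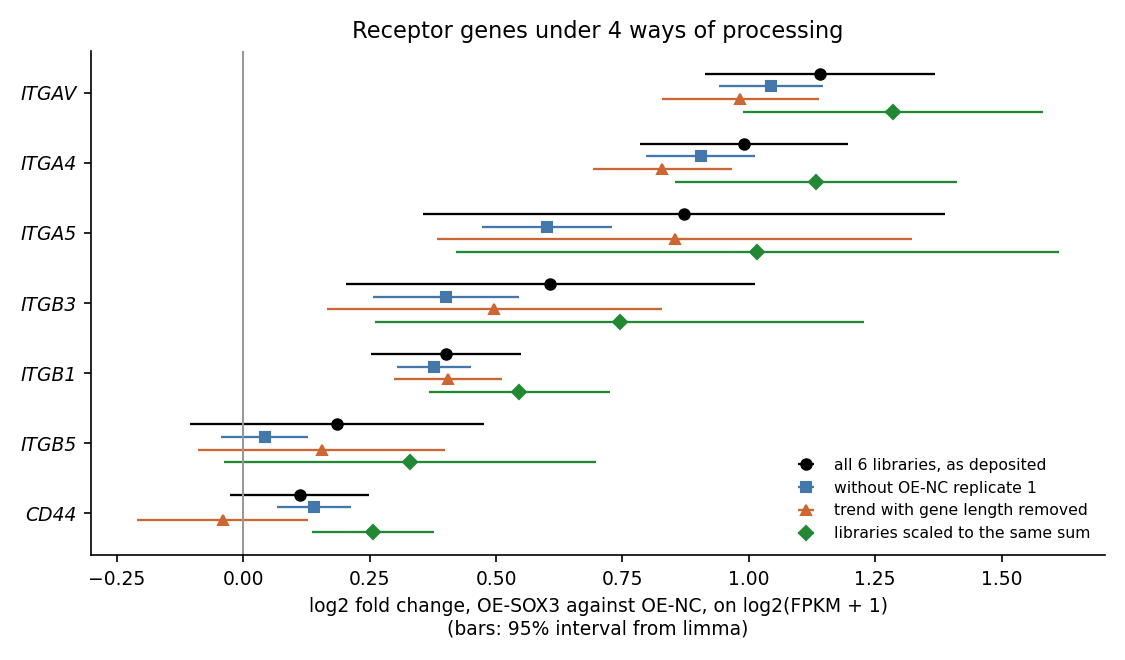
Log2 fold change of log2(FPKM + 1), OE-SOX3 minus OE-NC, for the 7 tested receptor genes, with 95% intervals from limma, under 4 settings: all 6 libraries, without OE-NC library 1, with the trend with gene length removed, and with libraries scaled to the same sum. ITGA5 goes from 0.87 to 0.60 and ITGB3 from 0.61 to 0.40 without OE-NC library 1, and CD44 crosses 0.

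Among the β subunits, ITGB1 and ITGB3 rose and ITGB5 did not pass. ITGB1 encodes β1, the partner of most α subunits, and lies on chromosome 10 (32900319 to 33005792, minus strand, GRCh38). It was at 446, 477 and 459.8 FPKM in OE-NC and at 619, 614 and 593 FPKM in OE-SOX3. The groups were clearly apart, and library 1 did not stand out. The means were 461 ± 15.4 and 609 ± 13.5 FPKM (SD, n = 3 each), with a log2 fold change of 0.40 (SE 0.06, 95% interval 0.25 to 0.55, limma adjusted p = 0.00103). Of the tested genes, 24.1% had a larger value. Without OE-NC library 1 it was 0.38.

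ITGB3 encodes β3, the partner of αV in the vitronectin receptor of osteoclasts and endothelium. Its levels were low, at 4.89, 7.74 and 8.37 FPKM in OE-NC and 10.1, 11.4 and 11.4 FPKM in OE-SOX3. The groups did not overlap, although OE-NC spread widely. The means were 7.0 ± 1.85 and 11.0 ± 0.768 FPKM (SD, n = 3 each), with a log2 fold change of 0.61 (SE 0.17, 95% interval 0.20 to 1.01, limma adjusted p = 0.0159). This call depended on single libraries, with adjusted p = 0.0549 without OE-SOX3 library 2 and 0.0564 without OE-SOX3 library 3, and the value was 0.40 without OE-NC library 1. ITGB3 spans chr17:47253846-47311816 (plus strand, GRCh38). Of its exon bases, 51.6% are shared with the protein-coding gene AC068234.1 on the same strand, so its level is uncertain.

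ITGB5 encodes β5, which pairs with αV alone, and lies on chromosome 3 (124761948 to 124901418, minus strand, GRCh38). It was at 169, 228 and 228 FPKM in OE-NC and at 225, 239.6 and 241 FPKM in OE-SOX3. OE-SOX3 library 1 lay below OE-NC libraries 2 and 3, so the groups overlapped. The means were 209 ± 33.9 and 235 ± 9.07 FPKM (SD, n = 3 each), and the log2 fold change was 0.18 (SE 0.12, 95% interval -0.11 to 0.48, limma adjusted p = 0.216). It was 0.04 without OE-NC library 1.

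CD44, the receptor of the set that is no integrin, differed little. It lies on chromosome 11 (35138870 to 35232402, plus strand, GRCh38). Its levels were 129, 122 and 121 FPKM in OE-NC and 136, 133 and 134 FPKM in OE-SOX3. Each OE-SOX3 library was above each OE-NC library, by a narrow margin. The means were 124 ± 4.30 and 134 ± 1.37 FPKM (SD, n = 3 each), with a log2 fold change of 0.11 (SE 0.06, 95% interval -0.03 to 0.25, limma adjusted p = 0.125). The call and the sign both depended on the setting. The log2 fold change was 0.32 after quantile normalization (adjusted p = 0.00157), 0.26 with every library scaled to the same sum (adjusted p = 0.00336) and 0.14 without OE-NC library 1 (adjusted p = 0.00259), and it was -0.041 with the trend with gene length removed (adjusted p = 0.626). CD44 is heavily spliced, and the table has 1 value a gene, so its standard and variant forms cannot be told apart.

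The order of the levels differed between the groups, with SPP1 in the eighth place in OE-NC and the third in OE-SOX3. In OE-NC the order of the means, from the highest, was ITGB1, ITGA5, ITGB5, CD44, ITGAV, ITGA4, ITGB3, SPP1 and ITGA9, and of these neighbours the ranges of ITGA4 and ITGB3 overlapped. In OE-SOX3 it was ITGA5, ITGB1, SPP1, ITGB5, ITGAV, CD44, ITGA4, ITGB3 and ITGA9. The ranges of ITGA5, ITGB1 and SPP1 overlapped there, as did those of ITGAV and CD44. The level of CD44 was 1.74 to 2.30 times that of ITGAV in the OE-NC libraries and 0.905 to 0.993 times in the OE-SOX3 libraries.

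The receptor genes differed by unequal amounts, so the proportions between partners were compared within each library. The ratio of ITGB5 to ITGAV levels was 3.02 to 3.34 in OE-NC and 1.51 to 1.79 in OE-SOX3. The ratio of ITGAV to ITGB1 was 0.126 to 0.151 in OE-NC and 0.227 to 0.240 in OE-SOX3. Neither ratio overlapped between the groups, and the exact two-sided permutation p was 0.1 for each, the smallest possible with 3 against 3. Both ratios were chosen after the fold changes were known. They restate the larger rise of ITGAV and are no separate evidence. Among the 5 β subunits that pair with αV, ITGB1 made up 68.1% ± 3.14 of the summed FPKM in OE-NC and 71.0% ± 1.17 in OE-SOX3 (SD, n = 3 each; exact permutation p = 0.3). ITGB5 made up 30.6% ± 2.96 and 27.4% ± 1.09 (exact permutation p = 0.3, n = 3 each). ITGB3 was at 1.02% and 1.28%, ITGB8 at 0.244% and 0.307% and ITGB6 at 0.0577% and 0.0224%. With 3 against 3 libraries no share could pass 0.05, so these values do not show that the make-up was alike. A share of transcripts is not a share of assembled receptors, since αV and α5 compete for β1 protein.

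On the α side, ITGA3, which encodes the laminin receptor subunit α3, made up less of the β1 partners in OE-SOX3 and ITGA5 and ITGAV made up more. The level of ITGA3 itself was 381 FPKM in OE-NC and 404 FPKM in OE-SOX3, so its lower share goes with higher levels of the other subunits. ITGA3 made up 53.4%, 41.0% and 40.9% of the summed FPKM of the β1 partners in OE-NC and 33.8%, 30.6% and 31.5% in OE-SOX3. ITGA5 made up 32.8%, 45.9% and 46.0% in OE-NC and 47.9%, 51.9% and 52.4% in OE-SOX3. For ITGAV the shares were 7.68%, 7.42% and 7.60% against 12.2%, 11.5% and 10.4%. The groups did not overlap for any of these, and each exact permutation p was 0.1, the smallest possible with n = 3 against 3. The mean share of ITGA4 was 1.05% in OE-NC and 1.48% in OE-SOX3. These β1 shares were chosen after the values had been seen. OE-NC library 1 had the highest share of ITGA3 and the lowest of ITGA5.

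**Figure D3:**
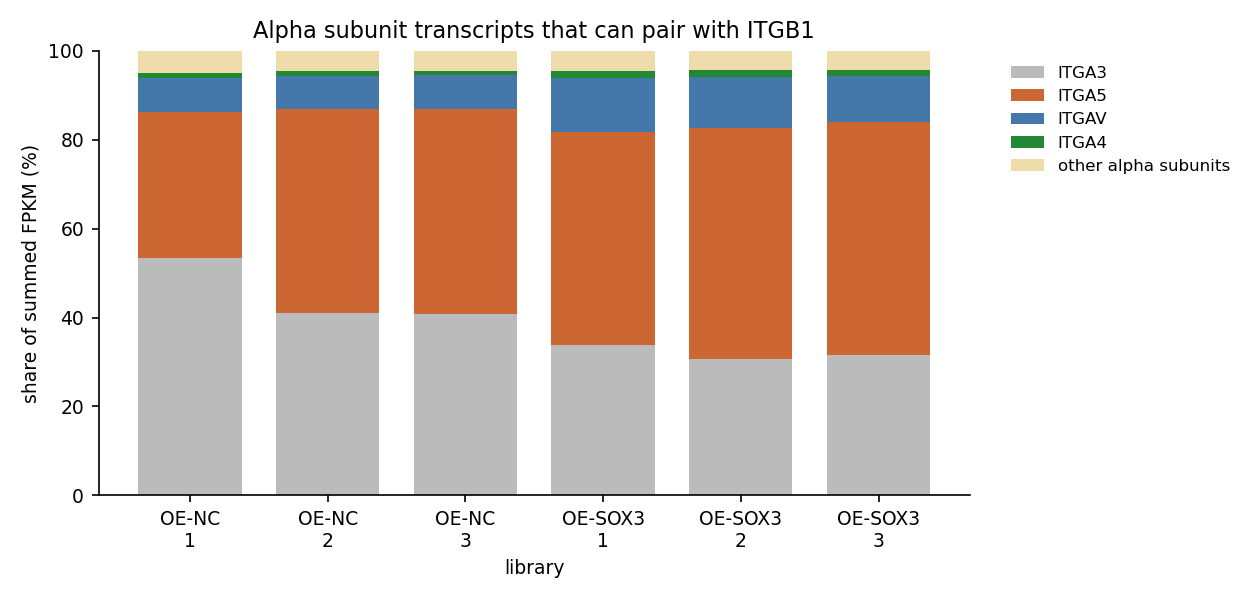
Share (percent of summed FPKM) of the α subunits that pair with β1, 1 bar a library. The ITGA3 share is 40.9% to 53.4% in OE-NC and 30.6% to 33.8% in OE-SOX3, and the ITGA5 and ITGAV shares are higher in each OE-SOX3 library.

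The integrin subunits outside the set moved in both directions. Of the 7 other tested α subunits 2 rose, 2 fell and 3 did not reach the threshold, and both other tested β subunits rose. The shares over all tested genes were 32.9% higher and 36.1% lower. With the receptor genes of the set included, the median log2 fold change was 0.66 over 10 tested α subunits and 0.45 over 5 tested β subunits. ITGA1, a collagen receptor subunit, rose from 6.51 to 19.8 FPKM (log2 fold change 1.49, SE 0.15, limma adjusted p = 0.000128). ITGA10, also a collagen receptor subunit, rose from 0.726 to 4.90 FPKM, and it reached the filter of 1 FPKM through OE-SOX3 alone. ITGB4, the partner of α6 in laminin-binding hemidesmosomes, rose from 6.58 to 17.8 FPKM, and ITGB8, an αV partner that binds latent TGF-β, rose from 1.65 to 2.64 FPKM. ITGA7, a laminin receptor subunit, fell from 6.68 to 3.10 FPKM (log2 fold change -0.90, SE 0.07, limma adjusted p = 3.04e-05). The other α subunit that fell was ITGAE, the β7 partner αE, from 3.35 to 1.97 FPKM, a gene named after its values had been seen. ITGA3 was at 381 and 404 FPKM and did not pass, with an adjusted p of 0.252. It passed with every library scaled to the same sum (log2 fold change 0.23, adjusted p = 0.00832) and without OE-NC library 1 (0.10, adjusted p = 0.0149). ITGA2 (log2 fold change 0.44) and ITGA6 (-0.04) did not pass either. After quantile normalization ITGA6 passed with the opposite sign (0.14, adjusted p = 0.0484). With the replicate number as a block, ITGA2 passed at the same value (adjusted p = 0.0254). ITGA2B, ITGB6, ITGB7 and ITGA11 were below the filter, and ITGA8 was not listed. Of these, ITGA2B (56 and 171 reads in OE-NC and OE-SOX3) was higher and ITGB6 (105 and 50) lower without overlap. ITGB7 and ITGA11 overlapped between the groups. Also below the filter, ITGB2 (12 and 128 reads) and ITGAX (0 and 6) were higher without overlap, and both were added after their values had been seen.

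**Figure D4:**
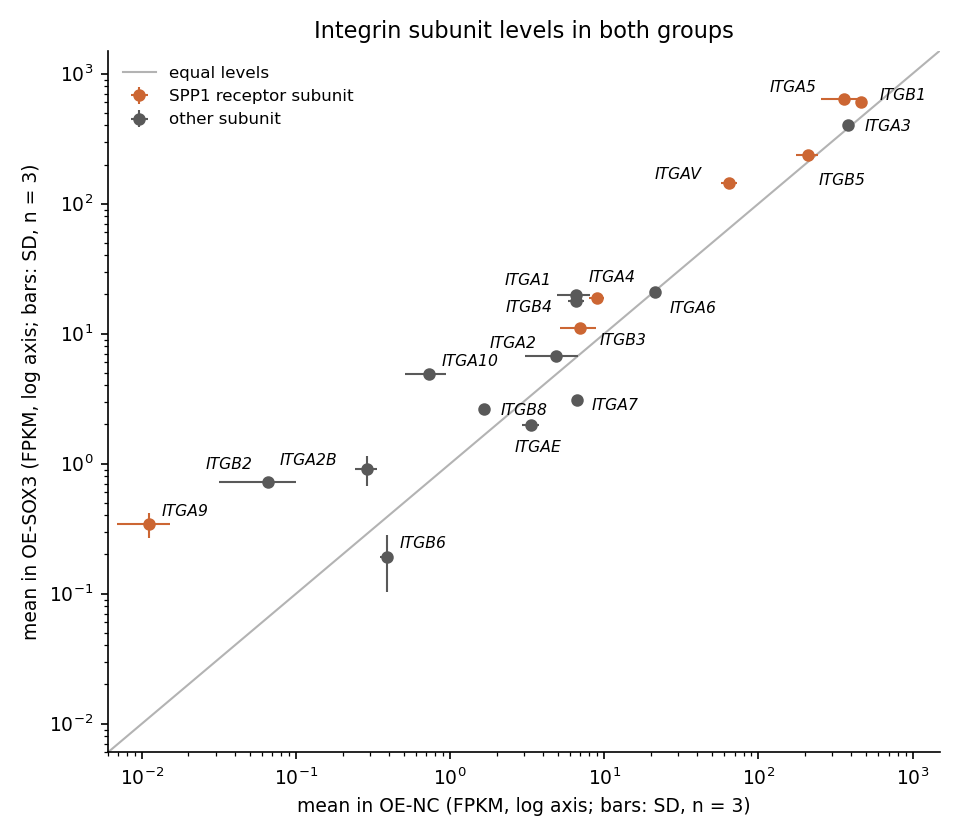
Mean FPKM in OE-SOX3 against mean FPKM in OE-NC (both log axes, 3 libraries a group) for integrin subunits that reached a mean of 0.1 FPKM in at least 1 group. Points above the diagonal are higher in OE-SOX3, ITGB1 is the most abundant in OE-NC and ITGA5 and ITGB1 are in OE-SOX3. ITGA7, ITGAE and ITGB6 lie below the line, and ITGA6 (21.4 and 20.9 FPKM) lies just under it.

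The tested matrix ligands that use the same integrins were mostly higher too. Of 12 tested genes among 21 listed, 11 rose and 1 fell, with a median log2 fold change of 0.98. Beside this count and those of the lists below stand the shares over all tested genes, 32.9% higher and 36.1% lower. Among tested genes of at least 4019 bp 40.2% were called higher. Below the filter NPNT (18 and 1 reads in OE-NC and OE-SOX3), EMILIN1 (27 and 10) and VWF (84 and 50) were lower without overlap. The other ligands below it overlapped between the groups. POSTN, a matricellular ligand of αVβ3 and αVβ5, was at 0.969, 1.41 and 1.12 FPKM in OE-NC and at 19.2, 20.7 and 18.2 FPKM in OE-SOX3 (log2 fold change 3.24, SE 0.09, limma adjusted p = 1.07e-06). TGFBI, a TGF-β-induced matrix protein, rose from 153 ± 11.1 to 862 ± 10.9 FPKM (SD, n = 3 each). The matricellular gene CCN2 rose from 149 to 602 FPKM, and LTBP1, which holds latent TGF-β in the matrix, rose from 7.08 to 20.7 FPKM. FN1, the main ligand of α5β1, was at 1255, 2673 and 2677 FPKM in OE-NC and 3707, 4359 and 4458 FPKM in OE-SOX3 (log2 fold change 1.00, SE 0.29, limma adjusted p = 0.0176). OE-NC library 1 was again the lowest by a wide margin. Without it the FN1 value was 0.64, and FN1 did not pass without OE-SOX3 library 2 (adjusted p = 0.0587) or 3 (adjusted p = 0.0615). TNC, an α9β1 and αV ligand, was the gene that fell (70.9, 121 and 121 FPKM against 59.4, 64.9 and 66.3 FPKM). Its call was lost when any library other than OE-NC library 1 was left out (adjusted p = 0.0533 to 0.0710), with every library scaled to the same sum (adjusted p = 0.0868), after quantile normalization (log2 fold change -0.44, adjusted p = 0.138) and with libraries 2 and 3 of each group counted as 1 (adjusted p = 0.125). FN1, TNC, NPNT, EMILIN1 and VWF were added after their values had been seen.

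Enzymes that act on osteopontin were described next. Of 7 tested genes 5 rose, 0 fell and 2 did not pass, where 32.9% of all tested genes were called higher. The median log2 fold change of the 7 genes was 0.70. FAM20C, the Golgi kinase that phosphorylates secreted proteins including osteopontin, rose from 23.2 ± 0.830 to 40.8 ± 0.444 FPKM (SD, n = 3 each; log2 fold change 0.79, limma adjusted p = 2.59e-05). ALPL, the phosphatase that can remove those phosphates, rose from 1.56 to 5.44 FPKM. PLAU, the urokinase that activates plasminogen, rose from 14.2 to 23.7 FPKM, and CTSB, the protease cathepsin B, from 229 to 394 FPKM. F2, the gene of thrombin, had at most 3 reads in any library. Also below the filter, MMP3 (68 and 7 reads in OE-NC and OE-SOX3) and MMP12 (9 and 0) were lower without overlap. MMP7 (5 and 36 reads) was higher without overlap. These MMP genes were added after their values had been seen.

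Genes that act on the receptors or downstream of them did not move in 1 direction. Of 30 tested genes of integrin activation and adhesion signalling 8 rose, 10 fell and 12 did not pass. Their median log2 fold change was -0.07. PTK2B, the adhesion kinase PYK2, rose from 4.45, 5.16 and 6.33 FPKM to 21.8, 21.4 and 23.0 FPKM (log2 fold change 1.88, SE 0.11, limma adjusted p = 1.06e-05). SRC, the kinase that acts with it, rose with a log2 fold change of 0.62, and LIMS2, which joins ILK in a complex, rose by 0.65. ILK itself, the integrin-linked kinase scaffold, fell by 0.59 on that scale, from 129 to 85.4 FPKM. In the PI3K-AKT core, 10 of 24 tested genes rose, 4 fell and 10 did not pass, with a median of 0.13. Over all tested genes 32.9% were called higher and 36.1% lower. FOXO1, a transcription factor that AKT keeps out of the nucleus, rose from 1.85 to 5.90 FPKM (log2 fold change 1.28, limma adjusted p = 2.75e-05). PIK3R1, the regulatory subunit of PI3K, had a log2 fold change of 0.74, and RICTOR, a subunit of the mTOR complex that phosphorylates AKT, one of 1.16. The 4 that fell were PIK3CG (log2 fold change -0.49), GSK3A (-0.48), AKT1 (-0.35) and PDPK1 (-0.32), added after their values had been seen. PIK3CG passed the filter through OE-NC alone. All of these are transcript levels and give no measure of kinase activity.

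Of 18 tested genes around CD44 and hyaluronan, 9 rose, 7 fell and 2, CD44 among them, did not pass. The median log2 fold change was 0.15. CEMIP2, described as a cell-surface hyaluronidase, rose from 9.0 to 20.3 FPKM, and LYVE1, the hyaluronan receptor of lymphatic endothelium, from 3.46 to 10.2 FPKM. ADAM10, which sheds the CD44 ectodomain, rose from 13.2 to 23.8 FPKM. RDX, the radixin that links CD44 to actin, rose from 31.3 to 44.0 FPKM, whereas the related linkers EZR and MSN fell, from 164 to 99.9 and from 336 to 238 FPKM. EZR and MSN were added after their values had been seen.

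**Figure D5:**
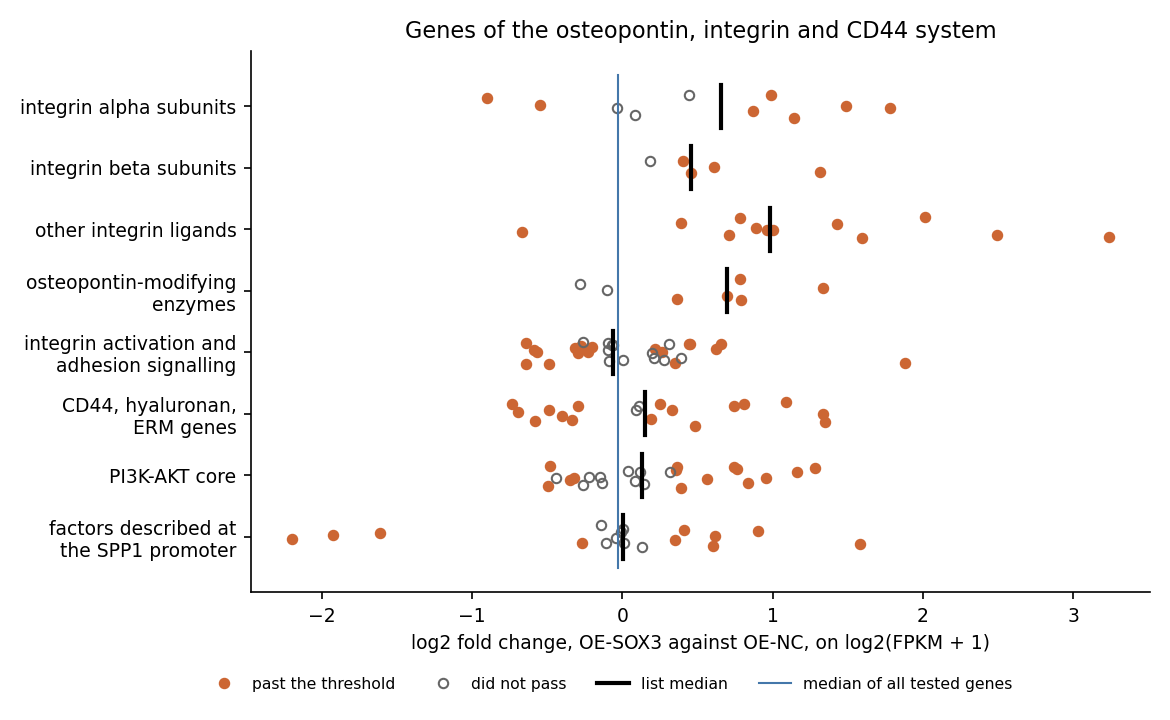
Log2 fold changes of log2(FPKM + 1), 1 point a tested gene, for the gene lists around SPP1 and its receptors, with the median of each list. The ligand list has a median of 0.98 and the adhesion signalling list one of -0.07, against -0.03 over all tested genes.

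Transcription factors described at the SPP1 promoter were divided, with 6 of 17 tested genes higher, 4 lower and 7 that did not pass (median log2 fold change 0.01). RUNX2, the osteoblast factor whose family recognises the AACCACA letters shown above, was at 2.04, 2.42 and 2.41 FPKM in OE-NC and 9.15, 8.81 and 8.54 FPKM in OE-SOX3 (log2 fold change 1.58, SE 0.07, limma adjusted p = 3.86e-06). CTNNB1, the gene of β-catenin, rose from 108 to 165 FPKM. SOX2, which shares the SOX core with SOX3, fell from 8.45, 7.36 and 6.75 FPKM to 1.30, 1.23 and 1.17 FPKM (log2 fold change -1.93, SE 0.08, limma adjusted p = 3.38e-06). JUN, a subunit of AP-1, fell from 78.0 to 16.2 FPKM (log2 fold change -2.20, SE 0.08, limma adjusted p = 1.87e-06).

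The genes whose log2(FPKM + 1) values were most like those of SPP1 across the 6 libraries were STMN2, TCIM, HHIP, COL11A1 and SOX3, with Pearson's r from 0.9997 to 0.99993. With libraries in 2 separate groups such values are common, since 740 of the 11130 other tested genes were above 0.99 and 730 were below the negative of that value. They describe the split between the groups. TCIM, HHIP and SOX3 had means of 0.0845, 0.560 and 0.0808 FPKM in OE-NC and passed the filter through OE-SOX3 alone. STMN2, a microtubule regulator of neurons, went from 1.23 to 17.4 FPKM and COL11A1, a fibrillar collagen chain, from 5.98 to 19.6 FPKM.

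The marker genes of cell types were read beside these results. Of the granulosa cell markers, 9 were tested, 6 rose and 0 fell. Of those 6, 4 (GATA4, INHA, INHBA and FST) passed the filter through OE-SOX3 alone and could be tested only because they were high there, so the count is no sign of a direction. Their summed level was 61.1 to 64.2 FPKM in OE-NC and 156 to 162 FPKM in OE-SOX3, of which STAR made up most (33.6 and 118 FPKM). FOXL2 was at 3.23 and 4.85 FPKM, and FSHR was not listed. Osteopontin and ALPL are also made by osteoblasts, and the 3 tested osteoblast markers (RUNX2, ALPL and PHEX) rose, with a summed level of the whole list of 5.64 to 6.49 and 17.0 to 18.9 FPKM, while SP7 was at 0 in OE-NC and 0.0104 FPKM in OE-SOX3. The theca and stromal markers summed to 534 to 546 and 2077 to 2215 FPKM, with 6 of 7 tested genes higher, and COL1A1 made up most of it (1835 FPKM in OE-SOX3). Leukocyte markers summed to 80.1 to 85.5 and 57.3 to 59.8 FPKM, nearly all of it CD68, and both tested genes fell. Of 4 tested epithelial markers 1 rose and 3 fell, among them KRT18 (142 to 26.5 FPKM) and KRT7 (118 to 42.2 FPKM), and the list summed to 269 to 319.8 FPKM in OE-NC and 88.5 to 97.8 FPKM in OE-SOX3. Of 4 tested endothelial markers 2 rose and 1 fell, and of 3 tested neural progenitor markers 1 rose and 1 fell. The part of these marker changes in the results for SPP1 and its receptors was not tested.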

How the data were processed

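RNA of 6 KGN libraries (3 OE-NC, 3 OE-SOX3) was compared. The authors deposited 1 expression value for each gene and library, under a header that names no unit. These deposited numbers were read as FPKM, since within a gene they are multiples of what 1 read is worth at that gene's length. HISAT2, HTSeq, RSEM and hg38 are named without roles, per the submitters' processing notes. The sources used here do not give the annotation, the read layout or any strand setting. Whole reads, gene lengths and library totals were recovered from those steps for all 16278 genes above 0 (within 0.02 reads). Where several solutions fitted, the one with the fewest reads was kept, which understates genes whose reads share a divisor. Ratios of reads have exact binomial 95% intervals that cover counting error only.

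The log2(FPKM + 1) values of 11131 genes, those whose mean reached 1 FPKM in OE-NC or in OE-SOX3, were fitted with limma-trend (limma 3.58.1, R 4.3.3). The same fit was also run on simulated reads. These had few changed genes and no library set apart, so they give no error rate for these data. P-values were Benjamini-Hochberg adjusted over all these genes, with a threshold of 0.05. Fold changes on this scale understate low genes. Single ratios and shares used exact two-sided permutation tests. Positions come from GENCODE 29 and promoters from RefSeq. Alternatives covered the pseudocount, the filter, 2 scalings, limma-voom on recovered reads, a replicate block, each library left out, and 2 settings chosen after seeing the data.

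Deviations from the group mean correlated at 0.486, 0.243 and 0.250 between libraries numbered 1, 2 and 3. OE-NC library 2 with OE-SOX3 library 3 gave 0.227, and OE-NC library 3 with OE-SOX3 library 2 gave 0.282. Libraries 2 and 3 were thus not paired by number in the data, and the labels do not say what a number marks. The main fit took no pairs, and the replicate block was an alternative. The rule for names took the 9 genes and SOX3, up to 4 genes past the threshold with the smallest adjusted p from each list, paired integrin subunits, and the 5 genes most like SPP1. A gene that it names is not reported here. The 9 genes and all lists were chosen with earlier results of these data known.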

Additional observations from a re-analysis of the deposited data

How the results depend on the processing

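SPP1, ITGAV, ITGB1, ITGA4 and ITGA5 rose under every alternative run. With the replicate block, 6 of the 9 genes and 8031 genes in all passed, and the block changed no other named call than that of ITGA2. Scaling every library to the same sum moved the median log2 fold change of all tested genes from -0.03 to 0.09 and the share of higher among called genes from 47.7% to 57.6%. With the stricter filter (a mean of at least 5 FPKM) 2312 genes were higher in place of 3665, since fewer genes were tested. Leaving out 1 library at a time gave 6557 to 9076 genes past the threshold, 3154 to 4274 higher and 3403 to 4802 lower, and 5 to 7 of the 9 genes higher; ITGB3 was lost without OE-SOX3 library 2 or 3 and CD44 was gained without OE-NC library 1. Libraries 2 and 3 were the most alike in each group (chi-square of their reads over its degrees of freedom 1.76 in OE-NC and 2.09 in OE-SOX3, against 4.64 to 61.5 in the other pairs within a group). With these libraries averaged and counted as 1, 6 of the 9 genes and 5920 genes passed. The sign turned for CD44 with the gene length trend removed (-0.041), for ITGA6 after quantile normalization (0.14) and scaling to the same sum (0.10), and for the difference in the ITGB8 share after quantile normalization (-0.00177 percentage points); the cause was not tested. ITGA9 was near the limit of depth, with 5 reads in all OE-NC libraries together.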
